A study of Mus musculus with 3 samples.

Results

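The cardiac T-box genes are the 6 genes Tbx1, Tbx2, Tbx3, Tbx5, Tbx18 and Tbx20, named as a set out of 21779 nuclear protein-coding genes, and all 6 were found in the RefSeq gene table. For each of them, every HIF1α peak was taken whose centre lay inside the gene or within 50 kb of either gene end. This gave 4 of the 17289 peaks in the list. The peaks came from chromatin immunoprecipitation and sequencing of hearts from wild-type Black-Swiss mouse embryos at E12.5 (the label for the embryonic day of dissection). There were 2 libraries precipitated with an antibody against HIF1α and 1 input library, made without antibody. The labels do not say whether the 2 pulldowns came from separate pools of embryos.

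T-box genes encode transcription factors that share a DNA-binding domain, the T-box, and bind a common short element as activators or repressors. In the embryonic heart TBX5 and TBX20 drive chamber muscle genes, often with NKX2-5 and GATA4, whereas TBX2 and TBX3 repress those genes in the atrioventricular canal and, for TBX3, in the conduction system. TBX1 acts in the pharyngeal progenitors that build the outflow tract, and TBX18 marks the epicardium and the sinus horns. HIF1α is stabilised when oxygen is low, pairs with ARNT and binds DNA at a core of A or G followed by CGTG. A peak records where chromatin was recovered with the antibody and carries no information on the level of a gene's RNA, so the labelled tissue could not be checked against marker genes here.

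Peaks lay in the windows of Tbx2 and Tbx3 alone among these genes, with 2 peaks each. No peak lay in the windows of Tbx1, Tbx5, Tbx18 and Tbx20. The share of members with a peak was thus 2 of 6 (33.3%, exact 95% Clopper-Pearson interval 4.33 to 77.7%), and 64.8% of all protein-coding genes had a peak in the same window. A peak merged from 2 calls was present at 1 of 6 (16.7%, interval 0.421 to 64.1%), against 21.4% of all protein-coding genes. Both background shares lie within these intervals, which are wide because the set is small. Intervals cover counting error only. The list gives no value per library and no read counts, so depth is unknown and no value has a replicate error.

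The sequences that bear on the genes without peaks are those of promoters that hold the HIF core and yet have no peak in the list. RefSeq promoters of 300 bases (GRCm38.p6, the build called mm10, from 250 bases before to 50 bases after a transcription start) were matched for 3 of the 6 genes, Tbx1, Tbx18 and Tbx20, as 4 promoters, since Tbx1 has 2 starts. All 4 lie on the minus strand. The core was searched as ACGTG and GCGTG on both strands. It was found in the promoter of the Tbx1 start inside the gene (chr16:18588850-18589149) and in that of Tbx20 (chr9:24774254-24774553), which are printed 5′ to 3′ with each core match in capitals.
Tbx1: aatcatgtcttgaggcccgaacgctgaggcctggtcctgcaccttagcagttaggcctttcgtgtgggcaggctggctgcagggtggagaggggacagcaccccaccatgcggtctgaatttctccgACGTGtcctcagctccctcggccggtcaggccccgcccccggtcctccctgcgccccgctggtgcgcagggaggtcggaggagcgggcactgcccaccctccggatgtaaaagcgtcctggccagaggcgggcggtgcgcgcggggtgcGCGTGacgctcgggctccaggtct
Tbx20: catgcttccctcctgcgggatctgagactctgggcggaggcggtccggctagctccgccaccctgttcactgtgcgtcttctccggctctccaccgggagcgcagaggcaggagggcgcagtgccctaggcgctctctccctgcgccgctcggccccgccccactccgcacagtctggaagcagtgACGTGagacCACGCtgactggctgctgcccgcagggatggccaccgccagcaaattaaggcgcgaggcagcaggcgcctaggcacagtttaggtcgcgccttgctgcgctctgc

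In the Tbx1 promoter the matches were ACGTG at bases 128 to 132 and GCGTG at bases 277 to 281 of the printed run. In the Tbx20 promoter they were ACGTG at bases 187 to 191 and CACGC, which is GCGTG read on the other strand, at bases 196 to 200. The other Tbx1 promoter (chr16:18590622-18590921) and the Tbx18 promoter (chr9:87731211-87731510) held no core in these 300 bases. The E-box CACGTG, which contains ACGTG, and the T-box core GGTGTG, both searched on both strands, were found in none of the 4. Over all 32851 RefSeq promoters of this length, 43.8% held ACGTG or GCGTG, 7.15% the E-box and 19.0% the T-box core. Of the promoters with a HIF core, 12.4% overlapped a peak, against 3.16% of those without one, and their mean GC contents were 58.8% and 49.9%. The part of base composition in that difference was not tested. A core match without a peak, as at Tbx1 and Tbx20, was therefore the usual case in this list.

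Tbx3 encodes the repressor that keeps the conduction system and atrioventricular canal from becoming chamber muscle, and it was the member with the closest peak. The gene spans chr5:119670534-119684724 (14.2 kb) on mm10. Its first peak (chr5:119670615-119670715) lay inside the gene, 131 bp from the lower-coordinate end, with a score of 4 from 1 call. The score is the authors' own whole number for each peak, at least 2 and with a median of 2 over the list. Scores of 4 or more made up 8.22% of the peaks of 1 call. This position is also inside Tbx3os1, a long noncoding RNA gene that overlaps the end of Tbx3, so the peak cannot be assigned to one of them. Tbx3 was 1 of 6 members with a peak centre within 5 kb of a gene end (16.7%, interval 0.421 to 64.1%), against 24.0% of all protein-coding genes. It was also 1 of 6 with a peak of score 4 or more in the window, against 26.5%.

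The other peak of the Tbx3 window (chr5:119712980-119713151) lay 28.3 kb above the higher end of the gene, with a score of 3. It was the single peak of the set that was merged from 2 calls. In the whole list, 1989 of the 17289 peaks were of 2 calls. Of the peaks of 2 calls in the list, 29.2% scored 3 or less. Its width was 172 bp, and 6.74% of peaks of 2 calls were wider than 170 bp. A single call is 101 bp wide, so the merged stretch is wider than 1 call but shorter than a pair placed end to end. The position was outside every annotated gene. The nearest gene end, 21.8 kb away, was that of Tbx3os2, another noncoding RNA gene, and Tbx3 was the nearest protein-coding gene. At this locus the higher score and the second call thus belonged to different peaks: the peak at the gene end had 1 call and the distant peak had 2.

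Tbx2 encodes the closely related repressor of the atrioventricular canal. The gene spans chr11:85832615-85841948 (9.33 kb). Its nearer peak (chr11:85849357-85849457) lay 7.46 kb above the higher end, with a score of 3 from 1 call, outside every annotated gene and with Tbx2 as the nearest gene. Peaks of 1 call with a score of 3 were common, at 29.2% of all peaks of 1 call. The other peak (chr11:85799999-85800099) lay 32.6 kb below the lower end, also with a score of 3 from 1 call. It was inside Bcas3 and inside the noncoding RNA gene 2610027K06Rik, and the nearest protein-coding end was that of Bcas3, at 26.0 kb. No peak of 2 calls lay closer to Tbx2 than 444.0 kb. The nearer peak is shared with Tbx4, a hindlimb T-box gene that starts 44.4 kb from the higher end of Tbx2, since it also falls in the Tbx4 window at 37.0 kb.

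**Figure D1:**
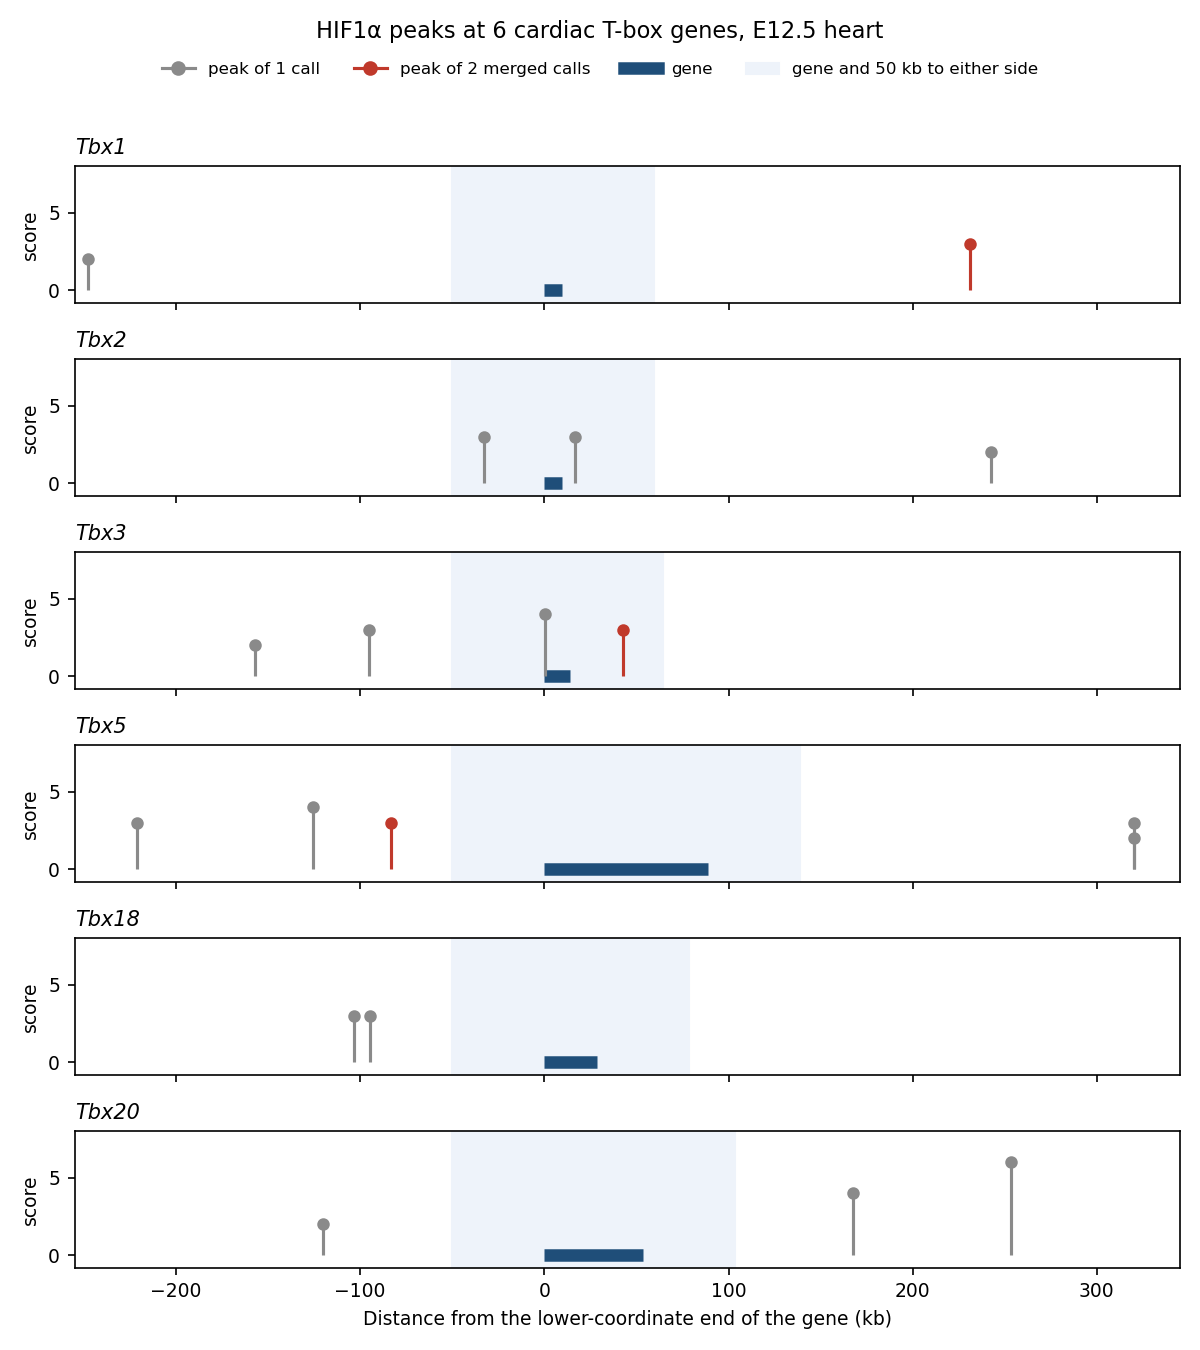
HIF1α peaks around each of the 6 genes, by distance in kb from the lower-coordinate end of the gene (x axis) and the authors' score (y axis). Grey stems are peaks of 1 call, red stems peaks of 2 merged calls, blue bars the genes and shaded bands the gene with 50 kb to either side. The bands of Tbx2 and Tbx3 hold 2 peaks each and the other 4 bands are empty.

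Tbx5 encodes the activator of atrial and left ventricular muscle genes that is mutated in Holt-Oram syndrome. The gene spans chr5:119796514-119885220, and at 88.7 kb it was the longest of the set. No peak lay inside it or within 50 kb. The nearest was the Tbx3 peak of 2 calls, 83.4 kb below its lower end, in the 112 kb between Tbx3 and Tbx5, which held no other peak. On the opposite side the nearest peak was 231 kb away, at the end of Rbm19. A closer peak was present for 76.1% of protein-coding genes.

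Tbx20 encodes a factor of chamber muscle, endocardium and valve growth. The gene spans chr9:24720812-24774303 (53.5 kb) on the minus strand, so its higher-coordinate end is the 5′ end. The nearest peak lay 114 kb upstream (chr9:24888507-24888607) with a score of 4 from 1 call, and the next upstream lay at 200 kb (chr9:24974328-24974428) with a score of 6 from 1 call, the highest score within 250 kb of any member. The nearest peak downstream was 120 kb away and scored 2. The nearest peak of 2 calls was 707 kb away. A closer peak was present for 82.8% of protein-coding genes.

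Tbx1 encodes a factor whose human gene is among those lost in the deletion that causes DiGeorge syndrome. The gene spans chr16:18580979-18590671 (9.69 kb) on the minus strand. Its nearest peak was the most distant of the set, 221 kb upstream (chr16:18811917-18812094), which scored 3 and was merged from 2 calls. It lay inside Ufd1 and 33 bp from the end of Cdc45, which encodes a replication factor. On the downstream side the nearest peak was 248 kb away, inside Tango2, with a score of 2. A closer peak was present for 92.5% of protein-coding genes. The Tbx1 window nonetheless holds 3 other protein-coding genes, Gnb1l, Gp1bb and Septin5, more than the window of any other member.

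Tbx18 encodes a marker and regulator of epicardium and sinus horn. The gene spans chr9:87702800-87731260 (28.5 kb) on the minus strand. Its nearest peaks lay beyond the 3′ end, at 94.6 kb (chr9:87608146-87608246) and 103 kb (chr9:87599462-87599562), each with a score of 3 from 1 call. Tbx18 was the nearest protein-coding gene to both. Upstream, the nearest peak was 751 kb away, at Syncrip. The nearest peak of 2 calls was 1001 kb away, the farthest of the set. A closer peak of any kind was present for 78.9% of protein-coding genes.

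By number of peaks the 6 genes fell on either side of the typical gene. The median protein-coding gene had 1 peak in its window, with quartiles of 0 and 2. The median of the members was 0. An empty window, as at Tbx1, Tbx5, Tbx18 and Tbx20, was found for 35.2% of protein-coding genes. The count of 2 peaks at Tbx2 and Tbx3 was shared by 18.8% of protein-coding genes, and 65.6% had fewer. Per Mb of window, Tbx2 had 18.3 peaks (exact 95% Poisson interval 2.22 to 66.1) and Tbx3 had 17.5 (interval 2.12 to 63.3). The upper bound was 33.6 per Mb for Tbx1, 28.7 for Tbx18, 24.0 for Tbx20 and 19.5 for Tbx5. The intervals of all 6 hold the median of protein-coding genes, 7.97 peaks per Mb, so no member's density could be told from it. For the empty windows this was fixed by their length, since a count of 0 there could not have excluded that median. Over the summed windows of 0.804 Mb the density was 4.98 peaks per Mb (interval 1.36 to 12.7). Over 2660.4 Mb of chromosome, which takes in the sequence between genes as well as the genes, it was 6.5 per Mb. That value is thus not a density of gene windows.

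**Figure D2:**
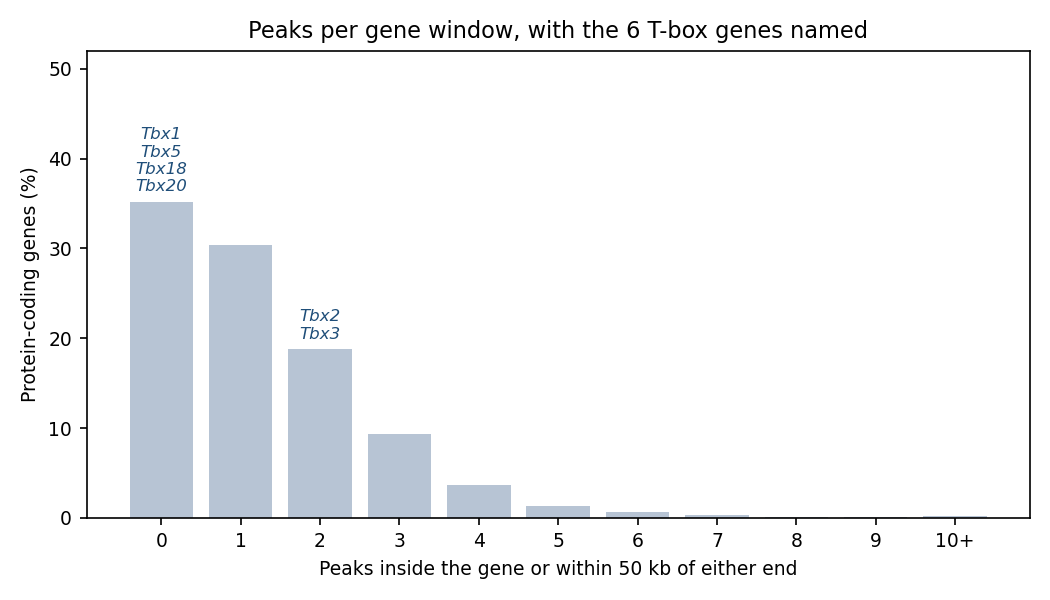
Share of 21779 protein-coding genes (y axis, %) by the number of peaks inside the gene or within 50 kb of either end (x axis, 10 or more pooled). Tbx1, Tbx5, Tbx18 and Tbx20 stand at 0 peaks, the count of 35.2% of genes, and Tbx2 and Tbx3 at 2 peaks, the count of 18.8%.

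The surroundings of these genes hold few other genes, and the share of genes with a peak moved with that number in the list as a whole. The median number of other protein-coding genes in the window was 0.5 for the members and 3 for all protein-coding genes. Tbx3, Tbx5 and Tbx18 had none, Tbx20 had 1, Tbx2 had 2 and Tbx1 had 3. Among the 2467 protein-coding genes with no protein-coding neighbour in the window, 50.2% had a peak and 7.17% a peak of 2 calls, and of the members in this class Tbx3 had both. Among the 11816 genes with 1 to 3 neighbours, 61.3% had a peak and 17% a peak of 2 calls, and Tbx2 was the member of this class with a peak. Among the 7496 genes with 4 or more neighbours these shares were 75.1% and 32.9%. The part of neighbouring genes in the members' counts was not tested.

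The number of members with a peak depended on the distance allowed. Within the gene alone, and up to 5 kb beyond its ends, Tbx3 was the single member with a peak, against 21.1% of protein-coding genes for the gene alone and 32.7% with 5 kb added. Tbx2 joined it at 10 kb, against 37.9%. At 100 kb Tbx5 and Tbx18 did so, which made 4 of 6 against 80.1%. Tbx5 then counted through the peak of the Tbx3 window. At 250 kb all 6 had a peak, against 93.5%, from 16 different peaks. Of these 16, 2 were of 2 calls, beside 1989 of the 17289 peaks in the whole list. A peak of 2 calls was within 250 kb of 3 of the 6 members, against 48.5% of protein-coding genes.

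**Figure D3:**
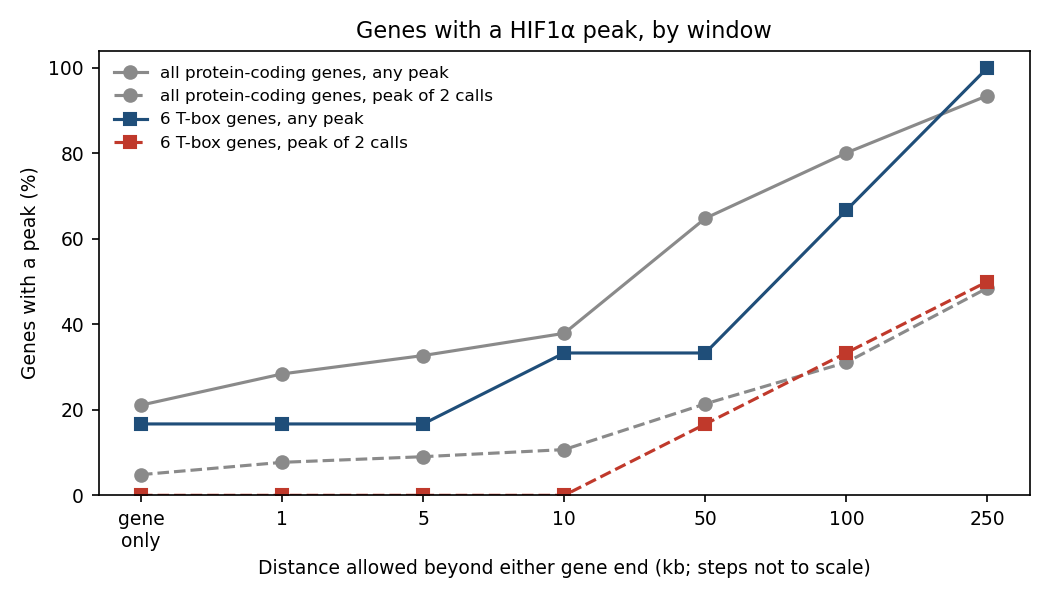
Share of genes with a peak (y axis, %) by the distance allowed beyond either gene end (x axis, kb, steps not to scale), for the 6 T-box genes (squares) and all protein-coding genes (circles). Solid lines count any peak and dashed lines peaks of 2 calls; the members lie at 33.3% and all protein-coding genes at 64.8% for any peak at 50 kb.

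The other 11 genes of the T-box family serve as the closest comparison. A peak lay in the 50 kb window of 8 of 11 (72.7%, interval 39.0 to 94.0%), against 64.8% of all protein-coding genes. This wide interval overlaps that of the cardiac members, and the difference between them was not tested. A peak of 2 calls was present for 2 of 11 (18.2%), against 21.4% of all protein-coding genes. The intervals treat genes as independent, although Tbx2 and Tbx4 share a peak. Mga, which encodes a factor with both a T-box and a MAX-binding domain, had a peak of score 3 within the gene body, 884 bp from one end. Tbr1, a cortical neuron factor, had one inside the gene at 2.46 kb with a score of 3, and Tbx15, a factor of skeleton and muscle, had one inside at 22.3 kb with a score of 2. These were all peaks of 1 call.

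In the remaining family members with a peak, another protein-coding gene was closer to it. Tbx6, a factor of the paraxial mesoderm, had a peak of score 17 from 2 calls at 13.8 kb, but that peak lay inside Aldoa, an aldolase gene of glycolysis, 1618 bp from its end. The other Tbx6 peak, at 4.59 kb, was 71 bp from the end of Ypel3 and scored 3. Eomes, an early mesoderm regulator, had a 2-call peak scoring 4 at 38.3 kb, inside Golga4. The peak in the Tbx10 window lay 142 bp from the end of Gstp1 and scored 3. Tbx21, the regulator of type I helper T cells, had peaks near Osbpl7 and Tbkbp1, both with scores of 3 from 1 call. Among the cardiac members this held for 1 of the 4 peaks, the Bcas3 peak of the Tbx2 window. The 2 sides are not alike, since the 4 peaks are all those of the members. The family genes of this paragraph leave out Mga, Tbr1 and Tbx15, each itself the nearest protein-coding gene to its peak. The Tbx4 peak is also the nearer Tbx2 peak, so it counts on both sides. The share over all gene windows was not computed. The windows of Tbx10, Tbx6 and Tbx21 held 9, 7 and 4 other protein-coding genes, and those of Tbx4 and Eomes 1 each. The windows of the members held 0 to 3, and the part of this in the contrast was not tested. Tbx19, Tbx22 and T had no peak in the window.

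**Figure D4:**
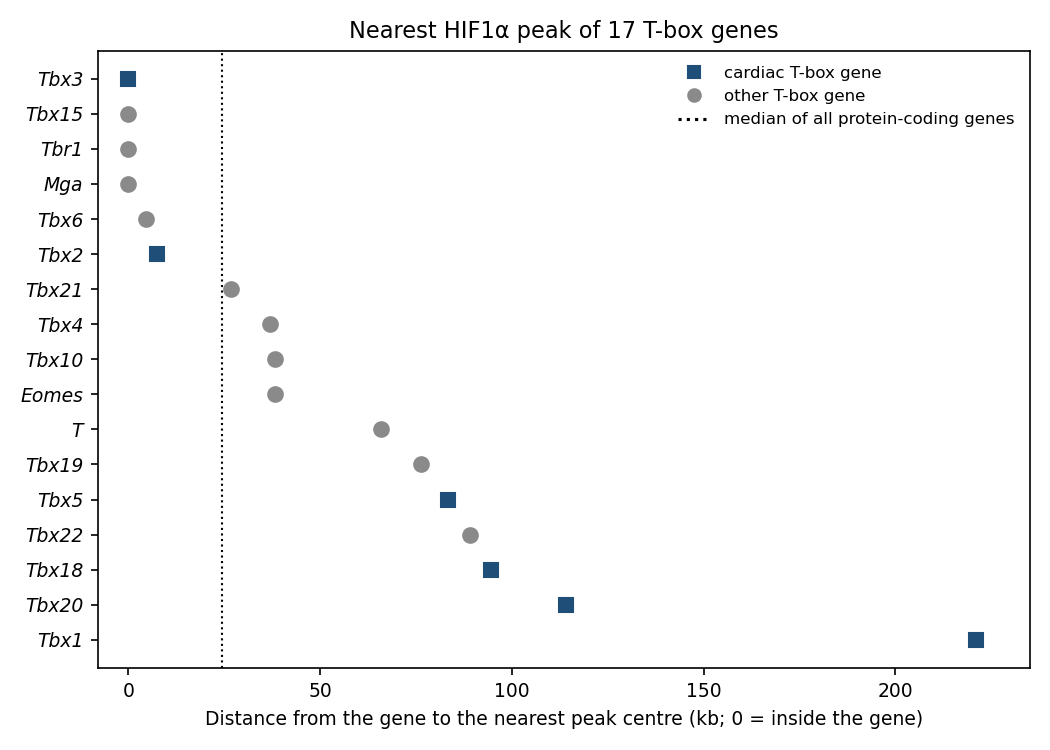
Distance in kb from each of 17 T-box genes to the nearest peak centre, with 0 for a peak inside the gene. Blue squares are the 6 cardiac members, grey circles the other family members, and the dotted line the median of all protein-coding genes at 24.3 kb. Tbx5, Tbx18, Tbx20 and Tbx1 lie at 83.4 to 221 kb.

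Genes that act with the cardiac T-box factors were described from 3 lists. The shares of all protein-coding genes to set beside their counts are 64.8% for a peak in the 50 kb window, 21.4% for a peak of 2 calls there and 24.0% for a peak within 5 kb of a gene end. Of 12 genes for signals upstream of them, 9 had a peak in the 50 kb window (75%, interval 42.8 to 94.5%), 1 had a peak of 2 calls there (8.33%) and 2 had a peak within 5 kb of a gene end (16.7%, interval 2.09 to 48.4%). Those were Bmp10, a growth factor of trabecular muscle (4.79 kb, score 3), and Notch1, the endocardial receptor (1.17 kb, score 3). The Notch1 peak was 323 bp from the end of the neighbouring 0610009E02Rik. Of 15 partner transcription factors, 9 had a peak in the window (60.0%, interval 32.3 to 83.7%), 2 had a peak of 2 calls there (13.3%) and 3 had a peak within 5 kb of an end (20%, interval 4.33 to 48.1%). At Gata4, a zinc finger partner of TBX5, the nearest peak lay 142 bp from the gene end with a score of 4. At Nkx2-5, a homeodomain partner, it lay 372 bp from the end with a score of 19. At Srf, a muscle gene activator, it lay 475 bp from the end with a score of 2, and 25 bp from the end of Cul9. The nearest peak to Isl1, a regulator of cardiac progenitors, was 19.3 kb away with a score of 2. These named peaks were all of 1 call. The window of Nkx2-5 held 3 peaks, of which 1 was of 2 calls, so Nkx2-5 is among the 2 partner factors counted above.

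Of 18 genes listed as targets of cardiac T-box factors, 13 had a peak in the window (72.2%, interval 46.5 to 90.3%), against 64.8% of all protein-coding genes. A peak of 2 calls was in the window of 5 (27.8%, interval 9.69 to 53.5%), against 21.4%. These were Nppa, Nppb, Gja5, Myl2 and Myh6, of which all but Nppa are named after their values were seen. The nearest peak to Myh6, an atrial myosin gene, was 28.9 kb away, of 2 calls and with a score of 37, and lay 2264 bp from the end of Myh7. The intervals of all 3 lists hold the shares of all protein-coding genes in each of these counts. A peak within 5 kb of an end was present at 2 of the 18 targets (11.1%, interval 1.38 to 34.7%, against 24.0%), namely Cacna1c, a calcium channel gene (2.1 kb, score 2), and Tgfb2, a cushion growth factor (4.36 kb, score 3), both of 1 call. The Tgfb2 peak was closer to the end of another gene, Gm35655, at 1534 bp. Nppa, the atrial natriuretic peptide gene that TBX5 activates and TBX2 and TBX3 repress, had a 2-call peak scoring 3 at 31.1 kb, and this peak was closer to Nppb, at 16.2 kb. Mycn, a growth regulator, had its nearest peak at 17.2 kb with a score of 2. In none of the 45 listed genes, and in none of the 6 members, did a peak of 2 calls lie within 5 kb of a gene end, against 7.72% of all protein-coding genes. The exact interval of a count of 0 reaches 45.9% for the 6 members and 7.87% for the 45 genes, so both hold that share. For both sets this was fixed by their size, since a count of 0 could not have excluded that share.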

How the data were processed

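Chromatin was cross-linked, sheared and precipitated with an antibody against HIF1α, per the labels' protocols, and the 3 libraries are 2 pulldowns and 1 input. Bowtie2, HOMER and the mm10 build are named without versions in the submitters' processing notes. The authors deposited 1 merged peak list, made from calls of each pulldown against the input per the file headers. It holds positions and a whole-number score per peak, and the header does not say what the deposited score is relative to, so it was used to describe and rank peaks within the list. For thresholds and the merging rule, the sources used here name none. The number ending each peak name was taken as its count of merged calls.

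Gene positions came from RefSeq (GRCm38.p6), leaving out, as unplaced, genes that start below 3 Mb (chromosome Y excepted). The table gives no exons and, outside the promoter table, no strand, so exons, introns and UTRs are not told apart. A peak was assigned by its centre. Distances run to the nearer gene end. No test was made, since nothing is measured per library. Values were computed with Python 3.11.15, pandas 2.3.3 and scipy 1.17.1. The counting was checked on simulated peaks against direct counting.

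All members are named, as are other T-box genes with a peak, listed genes with a peak within 5 kb of an end, and Nkx2-5, Gata4, Nppa, Mycn and Isl1. The members and lists were chosen with earlier results of these data known. Alternatives covered the window, score, calls, overlap, nearest-gene assignment and joined peaks.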

Additional observations from a re-analysis of the deposited data

How the results depend on the processing

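The count of 2 members with a peak was the same within 10 kb, with scores of at least 3 and with any overlap in place of the peak centre. It was 1 for the gene body alone, within 1 kb and within 5 kb, with scores of at least 4 and with peaks of 2 merged calls. It was 4 within 100 kb and 6 within 250 kb, a distance chosen after seeing the data. The count of 4 peaks was 1 for the gene body alone, within 1 kb and within 5 kb, with scores of at least 4 and with peaks of 2 merged calls, 2 within 10 kb and 16 within 250 kb. Counting a peak only at its nearest protein-coding gene gave 3, any overlap and joining of peaks under 1 kb apart each gave 4, and 100 kb gave 6. A narrower window or a stricter limit on peaks can by construction only lower these counts. The density at Tbx2, 18.3 peaks per Mb, was 34.1 within 10 kb and 9.55 within 100 kb, and that at Tbx3, 17.5, was 29.2 and 14.0. At Tbx5 and Tbx18 it was 0 within 10 kb, and 3.46 and 4.38 within 100 kb, and at Tbx1 and Tbx20 it was 0 in each. All lay within the intervals given for each member, but with 0 to 2 peaks a gene those are too wide to speak of stability. No paired analysis was possible because the list carries no value per pulldown, and for the same reason no replicate could be left out. Depth is unknown, so a gene without a peak is a gene without a call in this list and not one shown to be unbound.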
